A study of Rattus norvegicus with 6 samples.

Results

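Aldo-keto reductases and carbonyl reductases were followed in the renal cortex of rats given p-nitroanisole, through 9 genes: the aldo-keto reductases Akr7a3, Akr7a2, Akr1a1, Akr1b1 and Akr1b8, the carbonyl reductases Cbr1 and Cbr3, the quinone reductase Nqo2 and the xylulose reductase Dcxr. The set is given by gene name. All array probes whose RefSeq accession belongs to them were taken, which gave 14 of 61537 probes, for 9 of 15645 genes that could be named. All 14 probes were well above background on all 6 arrays, so none of the 9 genes depended on a filter for dim probes.

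Control rats were dosed with the vehicle, corn oil. The treated rats were dosed with p-nitroanisole, 500 mg per kg of body weight daily, and dosing lasted 4 weeks in each group. All 6 were male Sprague-Dawley rats bought at 5 weeks of age, with 3 separate animals per group and 1 single-colour (Cy3) array per animal. The renal cortex is a mixture of tubule segments, glomeruli, vessels and other cells. A higher or lower share of expressing cells therefore cannot be told apart from a higher or lower level in each cell. Each level is a probe's processed intensity divided by the 75th percentile of its array, called the scaled intensity. A difference is the treated mean minus the vehicle mean of the log2 scaled intensity, with its standard error (SE) from limma and n = 3 per group. Levels of different probes are not set against each other, because probes differ in how strongly they bind. Sums over marker genes add different probes and are compared only between arrays, and the brightest probes weigh most in them.

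Aldo-keto reductases are soluble enzymes that use NADPH to reduce aldehydes and ketones to alcohols. Carbonyl reductases do the same chemistry but belong to the short-chain dehydrogenase family. In the kidney, some of these enzymes handle sugars and sugar acids and others take up reactive aldehydes and drug carbonyls. Several genes of these families are known targets of NRF2, the transcription factor of the antioxidant response.

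The share of probes well above background ran from 66.4% to 69.2% over the arrays, and no spot was saturated. Across all 32197 rows tested (12207 named genes and 19990 unnamed probes), limma called 24 at an adjusted p under 0.05, which is 0.0745%: 16 higher with treatment (0.0497%) and 8 lower (0.0248%). Without 1 of the arrays it called 0 to 9. An unadjusted p under 0.05 was found in 4327 rows (13.4%), higher in 7.68% and lower in 5.76%. In 22.2% of the rows the 3 treated arrays lay wholly above or wholly below the 3 vehicle arrays, above in 11.9% and below in 10.3%. The vehicle arrays and treated replicates 1 and 2 were on slide 1, and treated replicate 3 was on slide 2. Within slide 1 the vehicle arrays were in row 1 and the treated arrays in row 2. Group and slide row therefore cannot be told apart in values given within slide 1. Markers of the proximal tubule, the main tissue of the cortex, were present as labelled: all 10 were tested, with a summed scaled intensity of 2170 to 2190 on the vehicle arrays and 2220 to 2340 on the treated arrays. Marker sums also differed without overlap for red cell precursors (5 of 6 tested, 155 to 185 against 360 to 427), neutrophils (3 of 5 tested, 0.433 to 0.583 against 1.27 to 1.37), principal cells of the collecting duct (6 of 7 tested, 208 to 233 against 175 to 202), T and NK cells (6 of 6 tested, 2.18 to 2.26 against 1.77 to 2.15) and intercalated cells (5 of 5 tested, at least 101 against at most 99.4). Elane, a defining neutrophil protease, was on the array and not tested, as it was not well above background on all 3 arrays of either group. Among tested genes taken singly, the groups did not overlap in 5 of 5 red cell precursor, 3 of 3 neutrophil and 3 of 6 principal cell markers. They did not overlap in 2 of 10 proximal tubule, 1 of 6 T and NK cell and 0 of 5 intercalated cell markers. The share over all rows was 22.2%. The part of these cell types in the values below was not tested.

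Of the 9 genes, Akr7a3 stood apart. Its level with p-nitroanisole was 2.00-fold that with vehicle, and it was the only one of the 9 whose groups did not overlap. Akr1b8 had a larger mean difference, 2.85-fold, but its arrays spread so widely that the groups overlapped. The other 7 genes differed by at most 0.17 on the log2 scale in either direction. With limma 0 of the 9 genes were called at an adjusted p under 0.05, against 0.0745% of all rows, and 1 of 9 (11.1%), Akr7a3, had an unadjusted p under 0.05, against 13.4% of all rows. Within slide 1, 3 of the 9 had an unadjusted p under 0.05, against 13.5% of all rows. The groups did not overlap in 1 of 9 (11.1%), against 22.2% of all rows, so in the test over all 6 arrays neither the share at an unadjusted p under 0.05 nor the share without overlap was above the background. Treated means were higher in 7 of 9 genes and lower in 2, with a median difference of 0.05, against a median of 0.01 over all rows, where 52.4% were higher. With quantile scaling 5 of the 9 were higher and with median scaling 4, where Akr7a2, Dcxr and, with median scaling, Cbr3 lay close enough to 0 to change sign.

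**Figure D1:**
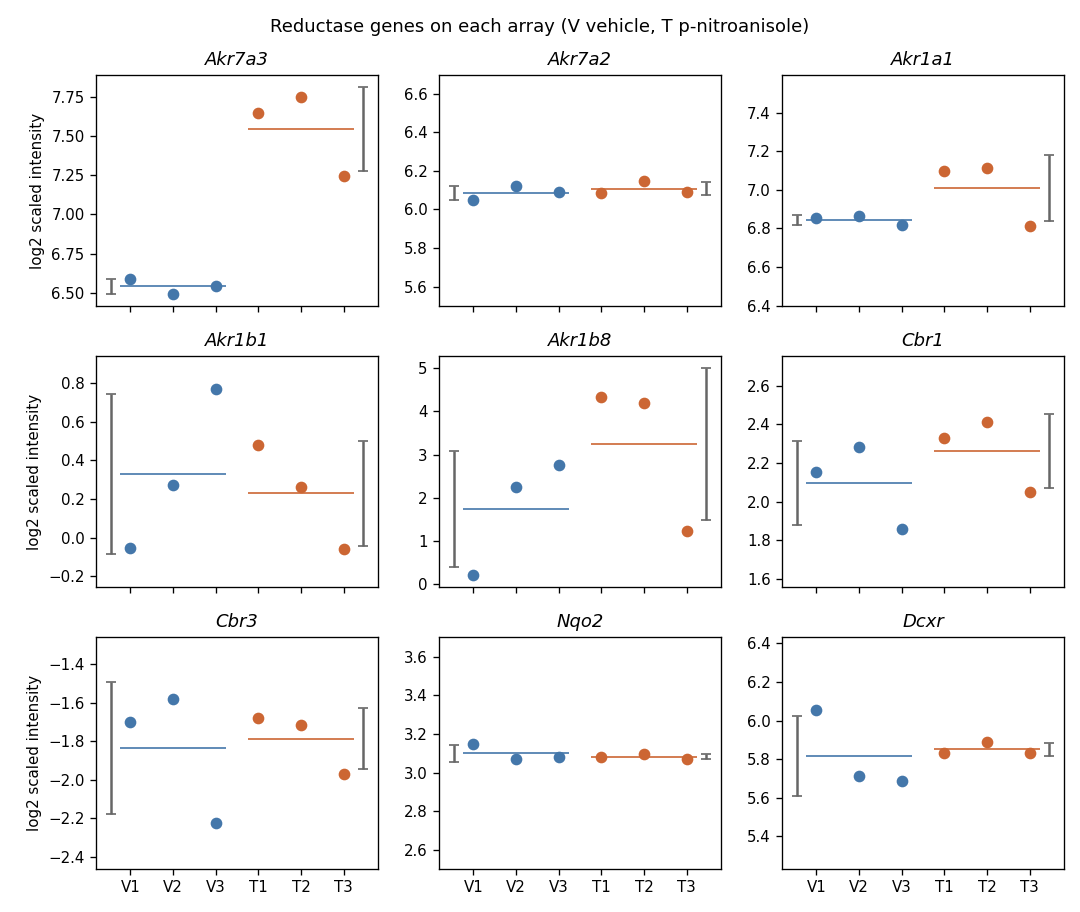
Log2 scaled intensity (vertical axis) of the 9 genes on the 3 vehicle arrays (V1 to V3, blue) and the 3 p-nitroanisole arrays (T1 to T3, orange), with group means as lines and 1 SD as grey bars beside each group. Each panel has its own range; the treated points of Akr7a3 lie at 7.24 to 7.74, all above the vehicle points at 6.49 to 6.59, and those of the other 8 genes overlap with the vehicle points.

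The Akr7a enzymes are the aflatoxin aldehyde reductases, which reduce the dialdehyde formed from aflatoxin B1 and other small aldehydes. Akr7a3, the inducible member of the group in rat liver, and Akr7a2, which also reduces succinic semialdehyde, lie beside each other on chromosome 5 in the RefSeq gene table (assembly GRCr8), with 0 protein-coding genes between them. The RefSeq promoter windows of both are shown so that the neighbours, whose measured differences are compared next, can be read side by side; each runs 5′ to 3′ on the plus strand of GRCr8 from 250 bases before to 50 bases after the annotated start, and capitals mark the 50 bases from the start on. The windows lie at chr5:156876471-156876770 (Akr7a3) and chr5:156835339-156835638 (Akr7a2).
Akr7a3: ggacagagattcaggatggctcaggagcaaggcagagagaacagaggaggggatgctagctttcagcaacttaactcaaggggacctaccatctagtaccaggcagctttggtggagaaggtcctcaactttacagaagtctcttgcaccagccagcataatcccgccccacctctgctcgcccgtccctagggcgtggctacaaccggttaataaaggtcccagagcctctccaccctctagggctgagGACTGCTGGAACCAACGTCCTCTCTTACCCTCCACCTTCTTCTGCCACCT
Akr7a2: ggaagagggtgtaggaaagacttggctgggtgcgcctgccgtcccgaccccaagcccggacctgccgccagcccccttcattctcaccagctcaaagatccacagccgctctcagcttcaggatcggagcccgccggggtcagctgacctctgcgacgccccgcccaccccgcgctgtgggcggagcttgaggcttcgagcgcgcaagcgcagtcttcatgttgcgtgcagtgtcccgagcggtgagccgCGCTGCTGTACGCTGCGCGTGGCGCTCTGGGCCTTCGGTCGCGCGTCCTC
Bases G and C made up 55.7% of the Akr7a3 window and 68.7% of the Akr7a2 window, against a median of 51.7% over all promoter windows.

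The scaled intensity of Akr7a3 (probe A_43_P11754) was 96.4, 90.1 and 93.1 on the vehicle arrays and 200.02, 215 and 151 on the treated arrays. All 3 treated arrays thus lay above all vehicle arrays, and treated replicate 3, on the second slide, was the lowest of them. Treated minus vehicle gave 1.00 on the log2 scale (SE 0.14, 95% interval 0.66 to 1.35, limma adjusted p = 0.102), and it was larger in size than those of 98.8% of all rows. The vehicle arrays differed by at most 1.07-fold and the treated arrays by 1.42-fold. Within slide 1 the difference was 1.15 (limma adjusted p = 0.0548), and treated replicate 3 alone lay 0.70 above the vehicle mean. Of 19 alternatives, 2 called the gene. They were a variance model with trend and robust options (limma adjusted p = 0.0357), which called 316 rows in all, and the normexp background correction (difference 1.04, limma adjusted p = 0.0213), chosen after seeing the data. The highest limma adjusted p over the alternatives was 0.296.

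The neighbouring Akr7a2 (probe A_42_P624333) had scaled intensities of 66.1, 69.6 and 68.1 on the vehicle arrays and 67.9, 70.9 and 68.2 on the treated arrays. The groups overlapped, and all 6 arrays lay close together. Its log2 difference was 0.02 (SE 0.06, limma adjusted p = 0.887), with a 95% interval of -0.13 to 0.17. Taken within each array, the log2 ratio of Akr7a3 to Akr7a2 lay 1.102, 1.140 and 0.695 above its vehicle mean on the treated arrays, against 0.09, -0.08 and 0.00 on the vehicle arrays. The mean difference of this ratio was 0.98 (SD 0.09 with vehicle and 0.25 with treatment, n = 3 per group; two-sided exact permutation p = 0.10, the smallest that 3 against 3 arrays can give; p = 0.30 when adjusted over the 3 neighbouring pairs compared).

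The genes whose 6 array values, each centred on its own mean, were most like those of Akr7a3 were P2rx5, Ppm1j and Abcc4, with root-mean-square differences of 0.05, 0.06 and 0.10 among 12198 named genes, against 0.52 for Akr7a3 about its own mean. Since they were picked for likeness to Akr7a3, differences of similar size follow from the choice. P2rx5, which encodes an ATP-gated ion channel, differed by 0.95 (SE 0.12). Its log2 levels were low, -6.02 to -5.91 with vehicle and -5.26 to -4.87 with treatment. Ppm1j, a protein phosphatase gene, also differed by 0.95 (SE 0.11), and Abcc4, an efflux pump gene, by 0.94 (SE 0.16).

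Akr1b8 encodes an aldose reductase-like enzyme that reduces aldehydes, and Akr1b1 encodes aldose reductase itself, which turns glucose into the osmolyte sorbitol and is well known in the renal medulla. The RefSeq table places them beside each other on chromosome 4, with 0 protein-coding genes between. The promoter window of Akr1b8 at chr4:63964171-63964470 (plus strand, GRCr8, capitals from the annotated start on) is shown as that of the gene with the largest mean difference and the widest spread.
Akr1b8: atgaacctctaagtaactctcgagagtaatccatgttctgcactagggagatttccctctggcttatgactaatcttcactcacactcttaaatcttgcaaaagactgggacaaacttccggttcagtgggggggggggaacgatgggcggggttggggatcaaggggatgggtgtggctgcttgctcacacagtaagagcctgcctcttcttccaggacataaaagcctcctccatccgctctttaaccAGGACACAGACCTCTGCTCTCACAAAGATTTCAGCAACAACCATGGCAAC
It held 50.3% G and C, close to the median of all windows.

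The scaled intensity of Akr1b8 (probe A_44_P426107) was 1.16, 4.72 and 6.77 on the vehicle arrays and 20.1, 18.3 and 2.34 on the treated arrays. Treated replicates 1 and 2 lay above every vehicle array, and treated replicate 3 lay below 2 of the 3 vehicle arrays. Probe sequences were not used here, so signal from the related genes Akr1b10 and Akr1b7 on this 1 probe cannot be told apart from that of Akr1b8. The vehicle arrays alone spanned 5.86-fold and the treated arrays 8.59-fold. Its SD within groups, 1.56 on the log2 scale, exceeded that of 99.8% of all rows, whose median was 0.14. The log2 difference was 1.51 (SE 1.05, 95% interval -1.07 to 4.09, limma adjusted p = 0.567), so the interval covers both a 17.1-fold higher level and a lower one.

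The value of Akr1b8 depended on single arrays. It was 0.75 without vehicle replicate 1, 0.97 without treated replicate 1, 1.04 without treated replicate 2 and 2.52 without treated replicate 3 (limma adjusted p = 0.308), which is also the value within slide 1. Set against the vehicle arrays, treated replicate 3 alone gave -0.51. The S3 markers are genes of the last proximal tubule segment (6 of 6 tested). Their summed scaled intensities were 322 to 393 with vehicle and 295 to 369 with treatment. Cyp4a8, at log2 levels of 7.86 to 8.27, was the brightest and weighs most in this sum. On vehicle replicates 1 to 3, Slc7a13 had log2 levels of 1.83, 3.22 and 4.83, and Slc22a7 of -4.62, -3.37 and -2.19. Both rose in the order of Akr1b8, while Cyp4a8, Acsm3, Slc5a1 and Slc34a3 did not. Treated replicate 3 was the lowest treated array for Slc7a13, Slc34a3 and Cyp4a8, but not for Slc22a7, Acsm3 and Slc5a1. The part of the S3 markers in the spread of Akr1b8 was not tested.

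No other named gene followed Akr1b8 closely: the most similar, Ccn6, Tm4sf20 and Smok2a, had root-mean-square differences of 0.83, 0.84 and 0.88 over the 6 arrays, against 1.48 for Akr1b8 about its own mean. Their treated minus vehicle differences were 0.49 (SE 0.56), 0.55 (SE 0.76) and 0.88 (SE 0.49).

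Akr1b1 had scaled intensities of 0.96, 1.21 and 1.70 on the vehicle arrays and 1.40, 1.20 and 0.96 on the treated arrays (probe A_42_P784448). The groups overlapped, and vehicle replicate 3 was the highest of the 6 arrays. For Akr1b1 the difference was -0.10 on the log2 scale (SE 0.24, 95% interval -0.69 to 0.49, limma adjusted p = 0.875). It was 0.12 without vehicle replicate 3 and 0.04 without treated replicate 3, so its sign rested on those arrays. The second probe, A_44_P432452, gave -0.13 (SE 0.26) and put the 6 arrays in the same order within each group. In both genes vehicle replicate 1 was the lowest and vehicle replicate 3 the highest of the vehicle arrays, and treated replicate 3 the lowest of the treated arrays. The log2 ratio of Akr1b8 to Akr1b1 within arrays differed between the groups by 1.61 (SD 0.99 with vehicle and 1.50 with treatment, n = 3 per group, two-sided exact permutation p = 0.30; 0.30 adjusted over the 3 pairs).

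**Figure D2:**
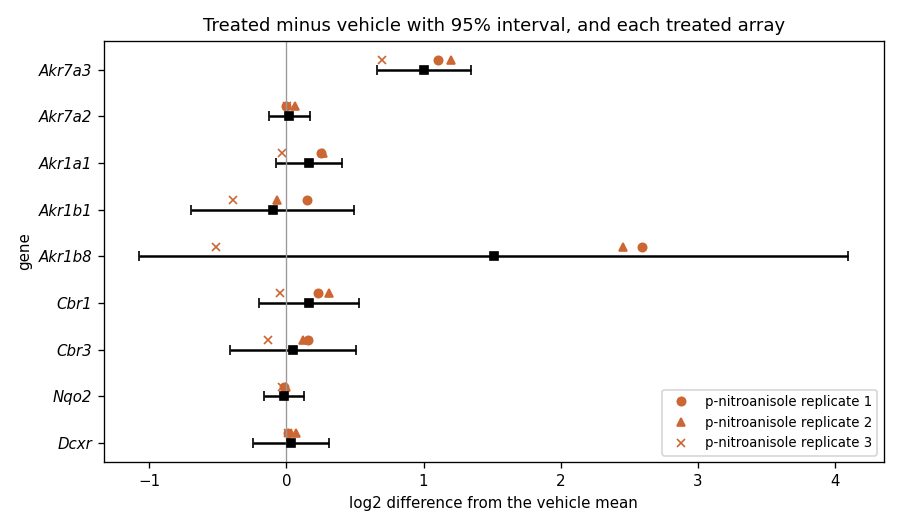
Log2 difference between treated and vehicle means (black squares) with its 95% interval (bars) for the 9 genes, and each treated array minus the vehicle mean (orange symbols). The interval of Akr7a3 lies above 0, that of Akr1b8 runs from -1.07 to 4.09, and the crosses of treated replicate 3 lie to the left of the other treated arrays for most genes.

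Akr1a1, the aldehyde reductase that turns glucuronate into gulonate, had scaled intensities of 116, 116 and 113 on the vehicle arrays and 137, 139 and 112 on the treated arrays (probe A_42_P570919). Treated replicates 1 and 2 lay above every vehicle array and treated replicate 3 just below them. Akr1a1 differed by 0.16 on the log2 scale (SE 0.10, 95% interval -0.08 to 0.41, limma adjusted p = 0.516), 0.26 within slide 1 (SE 0.06, limma adjusted p = 0.227) and -0.03 for treated replicate 3 alone. Dcxr, which reduces L-xylulose to xylitol later in the same sugar acid route, had scaled intensities of 66.5, 52.4 and 51.4 with vehicle and 57.0, 59.3 and 56.9 with treatment (probe A_43_P13256). Vehicle replicate 1 was the highest of the 6 arrays, and the 3 treated arrays lay between it and the other vehicle arrays. Dcxr differed by 0.03 on the log2 scale (SE 0.11, 95% interval -0.25 to 0.31, limma adjusted p = 0.913), and it was 0.15 without vehicle replicate 1.

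Cbr1, which reduces prostaglandin E2, quinones and anthracycline drugs, had scaled intensities of 4.45, 4.87 and 3.62 on the vehicle arrays and 5.03, 5.32 and 4.14 on the treated arrays (probe A_64_P036352). Treated replicates 1 and 2 lay just above the vehicle arrays, and treated replicate 3 lay within them. Cbr1 differed by 0.17 on the log2 scale (SE 0.15, 95% interval -0.20 to 0.53, limma adjusted p = 0.653), 0.27 within slide 1 and 0.05 without vehicle replicate 3. The other Cbr1 probes gave 0.12 (A_44_P288153, SE 0.17) and 0.18 (A_44_P288156, SE 0.19), and all 3 probes put the arrays in the same order within each group. Cbr3, a related carbonyl reductase of narrower substrate range, had scaled intensities of 0.31, 0.33 and 0.21 with vehicle and 0.31, 0.30 and 0.26 with treatment (probe A_64_P043033). The treated arrays lay within the vehicle range. The log2 difference was 0.05 (SE 0.19, 95% interval -0.41 to 0.51, limma adjusted p = 0.926), -0.15 without vehicle replicate 3 and 0.18 without vehicle replicate 2, and the second Cbr3 probe gave 0.24 (SE 0.16).

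Vehicle replicate 3 was the lowest vehicle array on all 5 probes of Cbr1 and Cbr3, and treated replicate 3 the lowest treated array. Both genes lie on chromosome 11, with 3 protein-coding genes between them in the RefSeq table, Cbr1l1, Cbr1l2 and Cbr1l3, whose names mark them as Cbr1-like. Signal from these related genes on the Cbr1 probes cannot be told apart from that of Cbr1. The log2 ratio of Cbr1 to Cbr3 within arrays differed between the groups by 0.12 (SD 0.13 with vehicle and 0.07 with treatment, n = 3 per group, two-sided exact permutation p = 0.30; 0.30 adjusted over the 3 pairs).

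Nqo2, a quinone reductase that takes its electrons from dihydronicotinamide riboside rather than NADPH, had scaled intensities of 8.86, 8.40 and 8.46 with vehicle and 8.46, 8.56 and 8.39 with treatment (probe A_64_P152423). The groups overlapped, and only 2.04% of all rows had a smaller SD within groups. The log2 difference was -0.02 (SE 0.06, 95% interval -0.16 to 0.13, limma adjusted p = 0.916), and the second probe, A_43_P19313, gave -0.02 as well.

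**Figure D3:**
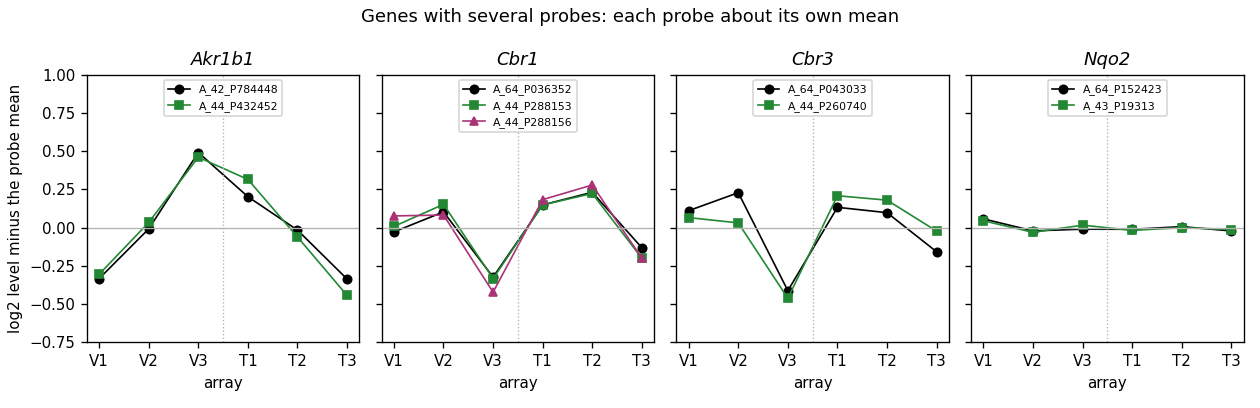
Log2 scaled intensity of each probe minus its own mean over the 6 arrays (vertical axis) for the 4 genes with several probes, by array (V vehicle, T p-nitroanisole); lines join the points of 1 probe and carry no order. The 3 probes of Cbr1 give the same array order within each group and dip on vehicle replicate 3, the 2 Akr1b1 probes peak there, and both Nqo2 probes stay near 0.

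In the 4 genes with several probes the probes gave the same sign, and the widest gap between their differences was 0.20, in Cbr3. The order of the arrays within each group was the same on all probes of Akr1b1 and of Cbr1, and differed between the probes of Cbr3 and of Nqo2. The other 5 genes had 1 probe each. Treated replicate 3 was the lowest treated array in 8 of the 9 genes, against 37.3% of all rows, and it lay inside the vehicle range in 5 of the 9, against 32.0% of all rows. It also differed most from the rest as a whole array. Its correlations with the other arrays were 0.9888 to 0.9908, against 0.9914 to 0.9945 among those arrays. Slide, slide row and animal cannot be told apart on treated replicate 3, since it was the 1 array on slide 2 and the 1 treated array in row 1 of a slide. The vehicle arrays were in row 1 and treated replicates 1 and 2 in row 2, so group and slide row cannot be told apart within slide 1.

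RefSeq promoter windows were found for 8 of the 9 genes, all but Akr1b1. Those of Akr1a1 and Nqo2 were not at the outermost annotated start of the gene. The antioxidant response element core TGACNNNGC was searched on both strands and was found in 0 of the 8 windows, against 12.1% of all 33469 windows of 300 bases. The letters TATAAA were found in 0 of the 8 (14.2% of all windows) and CCAAT in 2 of the 8, Dcxr and Nqo2 (37.5% of all windows). None of these matches overlapped another, and a window of this length says nothing about sites further away.

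Other genes of the same families and pathways were taken from lists, and the genes named from each are those called or, with none called, those with the largest differences. Of 16 other aldo-keto reductase genes on the array, 12 were tested, 5 higher and 7 lower with treatment, with a median of -0.05. Limma called 0 of them, against 0.0745% of all rows, and 2 of 12 had an unadjusted p under 0.05, 1 in each direction, against 13.4% of all rows. Kcnab3, a potassium channel beta subunit with an aldo-keto reductase fold, had the largest difference at 0.48 (SE 0.12, limma adjusted p = 0.220), followed by its relative Kcnab2 at -0.39 (SE 0.30). The log2 levels of Kcnab3 were low, -5.83 to -5.55 with vehicle and -5.42 to -5.09 with treatment. The count of higher genes was 3 with quantile or median scaling, 3 without treated replicate 3, 8 without vehicle replicate 2, 8 with no filter on dim probes, where more of the list is tested, and 10 within the slide row that holds both groups. Related probes of the Akr1c group can share sequence, so its members are told apart only as far as the probes allow.

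Of 33 other carbonyl, quinone and enone reductases tested, 15 were higher and 18 lower, with a median of 0.00. Limma called 0, against 0.0745% of all rows. Of the 33, 9 had an unadjusted p under 0.05, 4 higher and 5 lower, against 7.68% and 5.76% of all rows. Nqo1, the NADPH quinone reductase related to Nqo2, had log2 levels of -3.21, -2.75 and -2.69 with vehicle and -1.83, -1.65 and -2.28 with treatment. The treated arrays all lay above the vehicle arrays, with a difference of 0.96 (SE 0.21, limma adjusted p = 0.179). Por, which passes electrons from NADPH to cytochrome P450 enzymes, differed by 0.64 (SE 0.18, limma adjusted p = 0.236). The groups did not overlap in 5 genes that were higher and 8 that were lower of the 33, against 11.9% and 10.3% of all rows. With median scaling 9 of the 33 were higher.

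The sugar routes around Akr1b1, Akr1a1 and Dcxr were read from 16 tested genes of polyol and glucuronate metabolism, 11 higher and 5 lower, with a median of 0.07. Limma called 0, against 0.0745% of all rows, while 5 of 16 had an unadjusted p under 0.05, all higher, against 7.68% of all rows in that direction. Tkt, the transketolase of the pentose phosphate pathway, had log2 levels of 7.72, 7.67 and 7.67 with vehicle and 8.32, 8.41 and 8.20 with treatment, a difference of 0.62 (SE 0.08, limma adjusted p = 0.0805). Cryl1, the dehydrogenase that acts on gulonate, the product of Akr1a1, differed by 0.54 (SE 0.09, limma adjusted p = 0.133). In both, all treated arrays lay above all vehicle arrays. With quantile scaling 8 of the 16 were higher. Of 6 tested osmolyte genes of the tonicity response, which also regulates Akr1b1, 3 were higher and 3 lower. Limma called 0 of them, against 0.0745% of all rows, and 0 had an unadjusted p under 0.05, against 13.4% of all rows. The largest differences were 0.21 for the chaperone gene Hspa4l (SE 0.09) and -0.21 for the inositol transporter gene Slc5a3 (SE 0.11).

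Among 32 other tested NRF2 targets and regulators, 31 were higher and 1 lower, with a median of 0.42, and 28 of 32 were higher with quantile or median scaling. Limma called 1, against 0.0745% of all rows: Hmox1, the inducible heme oxygenase, at 3.51 (SE 0.16, adjusted p = 0.0199). An unadjusted p under 0.05 was found in 18 of 32, all higher, against 7.68% of all rows. Limma called 0 of the 32 without vehicle replicate 1, without vehicle replicate 2 or without treated replicate 1. The groups did not overlap in 19 of the 32, all higher with treatment, against 11.9% of all rows. This list, like the others, was chosen with earlier results of these data known, so these shares describe it and do not test it. Some list genes, among them Nqo1 and Tkt, stand in more than 1 list.

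**Figure D4:**
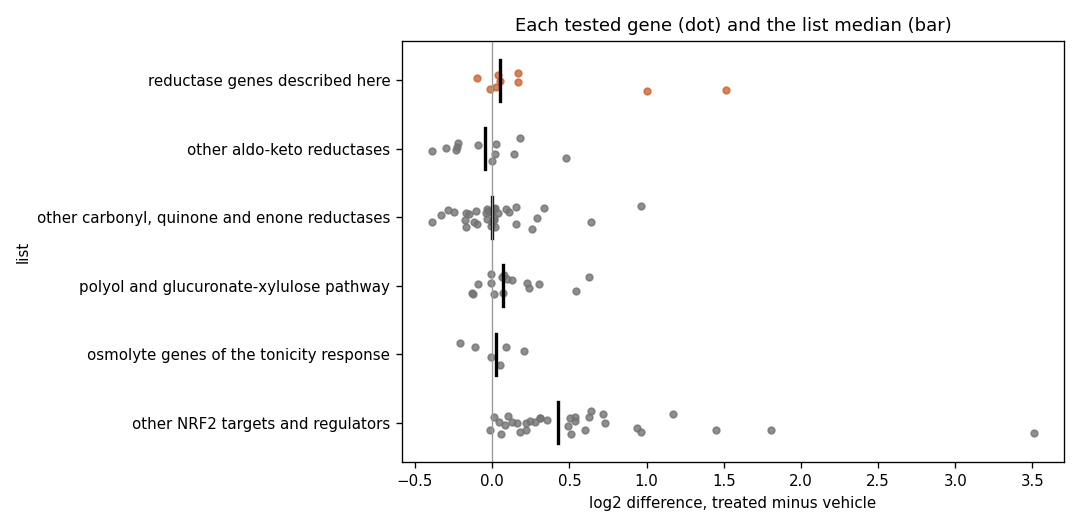
Log2 difference, treated minus vehicle (horizontal axis), of each tested gene (dots) by list, with the list median as a black bar; the vertical scatter within a list carries no meaning. The 9 reductase genes (orange) have a median of 0.05 with Akr7a3 and Akr1b8 to the right, while 31 of the 32 NRF2 genes lie above 0.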

How the data were processed

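RNA of the renal cortex of 6 rats was measured on 6 single-colour Agilent arrays. The deposited intensity values are processed spot signals from Agilent Feature Extraction 10.7.1.1, background-subtracted and spatially detrended, per the file headers, and were left without scaling across arrays. The deposited table of the authors' own values has the same intensities divided by 1 constant per array (ratio to the 75th percentile of non-control probes 1.001 to 1.003), on a linear scale with no centring per gene. That was found by setting it against the scanner values. Column medians were 0.105 with vehicle and 0.108 to 0.111 with treatment.

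Control spots and outlier spots (0 to 4 per array) were left out. The log2 intensity minus each array's 75th percentile was used. The floor was 1. A probe was tested if well above background on all 3 arrays of a group (41219 probes), and the brightest tested probe stood for a named gene. Accessions were matched to RefSeq symbols (GRCr8), which named 45.84% of the probes. The array design's build (rn4 in the headers) differs, so no probe coordinates are given. Promoter windows are RefSeq's. Groups were compared over all rows with limma 3.58.1 in R 4.3.3 (lmFit, eBayes, two-sided, Benjamini-Hochberg, threshold 0.05). The fit was tested on simulated data of 32197 rows. It called 3 of 67 simulated log2 differences of 0.5, 30 of 67 of 1 and 62 of 66 of 2. Among rows simulated without a difference it called 11. The genes and lists were chosen with earlier results of these data known. Named from the lists were up to 4 called genes or, with none called, the 2 largest differences, and the 3 genes nearest in pattern to Akr7a3 and Akr1b8. Of 19 alternatives (other scalings, filters, probe rules, variance models, slide and replicate blocks, single arrays left out, background correction), normexp on the median signals was chosen after seeing the data.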

Additional observations from a re-analysis of the deposited data

How the results depend on the processing

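Across 19 alternatives Akr7a3 stayed higher with treatment, between 0.70 and 1.15 on the log2 scale, and was called in 2 of them: 1 of the 9 genes was called with the trended robust variance (adjusted p = 0.0357) and 1 with normexp, chosen after seeing the data (adjusted p = 0.0213), and 0 in the other 17. The count of called rows was 24 and became 2 with no filter, 14 with the mean of a gene's probes, 316 with the trended robust variance, 9 with slide as a block, 9 within slide 1, 0 within the slide row that holds both groups (6631 at an unadjusted p under 0.05), 82 with normexp and 0 to 9 when single arrays were left out. The replicate block gave 1 called row and an adjusted p of 0.296 for Akr7a3. Same-numbered arrays deviated together at correlations of -0.01, 0.04 and -0.01. No pairing by number shows in these values, but with 3 arrays per group they cannot exclude one. Slide as a block equals leaving out treated replicate 3.

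Signs reversed with quantile scaling for Akr7a2 (-0.027) and Dcxr (-0.0072), with median scaling for Akr7a2 (-0.032), Cbr3 (-0.0068) and Dcxr (-0.021), with normexp for Akr7a2 (-0.039), and with slide as a block or within slide 1 for Akr1b1 (0.043). Within the slide row, where treated replicate 3 is the 1 treated array and its spread is taken from the vehicle arrays, they reversed for Akr1a1 (-0.031), Akr1b8 (-0.511), Cbr1 (-0.049) and Cbr3 (-0.134). Leaving out single arrays gave ranges of -0.292 to 0.121 for Akr1b1, -0.146 to 0.175 for Cbr3, -0.032 to 0.0069 for Nqo2 and -0.032 to 0.153 for Dcxr. The cause of these changes was not tested. The planned normexp on mean signals was not run. The number of arrays limits the precision. A limma p-value sets the difference between groups against the spread within groups, moderated over all rows. With 1 array per animal, that spread holds animal and array effects together.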
